A study of Rattus norvegicus with 60 samples.

Results

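The proteasome subunits were followed as a gene module in the liver of rats dosed for 5 days with 1 of 2 related aromatic amines. Members were the probe sets annotated to exactly 1 symbol made of Psma, Psmb, Psmc or Psmd and a number. The rule found 48 probe sets of 37 genes, out of 31042 probe sets and 14217 genes on the array, and each gene was represented by its probe set with the highest mean over all 60 arrays. The genes were 7 of the alpha ring and 6 constitutive genes of the beta ring (13 core subunits), 20 genes of the cap and the 3 immune subunits Psmb8, Psmb9 and Psmb10. Psmc3ip was also matched by its letters, but it encodes a recombination factor that binds a cap ATPase and is not a subunit, so counts below are over 36 subunit genes. Psmb6 was not represented, since its probe set also carries a second symbol.

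The animals were male F344/N rats, 5 to 6 weeks old at the start, housed 2 to a cage and dosed by gavage in corn oil at 2.5 ml/kg. They received N,N-dimethyl-p-toluidine (DMPT) or p-toluidine, the same ring amine without the N-methyl groups, at daily doses of 1, 6, 20, 60 and 120 mg/kg, and each chemical had its own corn oil vehicle group. Each of the 12 groups held 5 arrays, and for p-toluidine the doses come from the sample labels alone. The labels do not tie an array to an animal, so each p-value is about the spread among these arrays. Liver tissue was measured in bulk, so fewer cells of a type and less RNA per cell cannot be told apart.

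The proteasome is the large protease that degrades proteins tagged with ubiquitin. Its barrel-shaped core is built of outer rings of alpha subunits, which gate the entry, and inner rings of beta subunits, some of which carry the cutting sites. Caps on the ends of the barrel bind the ubiquitin tag, remove it, unfold the substrate with a ring of ATPases and feed it in. Interferon induces immune beta subunits that replace the constitutive cutting subunits and favour peptides for antigen presentation, and the transcription factor NRF1 (Nfe2l1) raises the constitutive genes when proteasome activity is short.

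The promoter sequences of a cap lid gene, a cap base gene and a core gene show the stretch from which 3 genes of the module are read. Psmd7 fell with both chemicals, Psmd1 had the largest called fall with p-toluidine, and Psmb5 was called, as was Psmb7, at the lowest dose of DMPT at which any subunit was. Each runs 5′ to 3′ over the 250 bases before the annotated start, from RefSeq on GRCr8. Capitals mark a match to TTCNNNGAA, the palindrome bound by STAT factors, in Psmd7, and to TGACNNNGC, the core of the antioxidant response element, in Psmd1 and Psmb5.
Psmd7, chr19:52411317-52411566, minus strand: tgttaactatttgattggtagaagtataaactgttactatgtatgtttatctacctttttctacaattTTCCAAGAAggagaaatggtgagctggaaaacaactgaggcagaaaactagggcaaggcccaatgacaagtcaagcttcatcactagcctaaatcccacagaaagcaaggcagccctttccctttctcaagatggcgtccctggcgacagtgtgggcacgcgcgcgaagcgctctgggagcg
Psmd1, chr9:94157721-94157970, plus strand: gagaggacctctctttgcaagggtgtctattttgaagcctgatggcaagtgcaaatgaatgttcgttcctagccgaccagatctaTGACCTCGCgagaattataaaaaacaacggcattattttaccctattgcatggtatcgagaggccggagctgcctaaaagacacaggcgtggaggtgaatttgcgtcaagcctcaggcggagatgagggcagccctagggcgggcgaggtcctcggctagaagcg
Psmb5, chr15:32047380-32047629, minus strand: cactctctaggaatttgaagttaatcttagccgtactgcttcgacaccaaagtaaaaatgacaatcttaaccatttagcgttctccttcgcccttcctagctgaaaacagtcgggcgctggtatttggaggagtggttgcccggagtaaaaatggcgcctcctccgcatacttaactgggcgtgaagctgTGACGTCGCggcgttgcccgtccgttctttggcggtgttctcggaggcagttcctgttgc

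Both motifs were searched on both strands in the same window of every gene. A match to TGACNNNGC lay in 5 of the 33 members with an entry, Psmc3ip among the 33 (Psma3, Psmb2, Psmb5, Psmd1 and Psmd9) and in 10.1% of all 33469 promoters. A match to TTCNNNGAA lay in 4 (Psmb8, Psmc6, Psmd3 and Psmd7) and in 7.67% of all promoters. Psma7, Psmd6, Psmd12 and Psmd14 had no entry. All the printed promoters hold a match, while called subunits such as Psmb1, Psmb7, Psmc2, Psmc5 and Psmd4 had none to either motif. A match is a description of the letters and not a binding site. Counted back from the start, the marked match lay at positions -60 to -52 in Psmb5, -165 to -157 in Psmd1 and -182 to -174 in Psmd7. Among all members the matches nearest to the start were in Psma3, at -12 to -4, and Psmd3, at -25 to -17.

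Levels are the deposited log2 values, and a change is a log2 difference from the vehicle of the same chemical. A subunit was said to rise or fall where limma gave an adjusted p of at most 0.05, adjusted by Benjamini-Hochberg across the 31042 tested. The array medians lay between 3.53 and 3.61 for DMPT and between 2.73 and 2.81 for p-toluidine, so levels were never set across the chemicals. On 5 of the 30 DMPT arrays (6 mg/kg replicate 3, 60 mg/kg replicates 3 and 5, and 120 mg/kg replicates 2 and 5) the interquartile range of all values was narrow, at 3.01 to 3.14 against 3.22 to 3.43 on the other 25. The 3′ minus 5′ difference of the beta-actin probe sets, a measure of RNA quality, was 1.48 ± 0.15 (SD, n = 5) in DMPT vehicle and 1.28 ± 0.08 at 120 mg/kg, and 1.80 ± 0.15 and 1.52 ± 0.09 in the p-toluidine groups. Its part in the subunits' changes is given as an alternative fit in the closing section. Albumin, the hepatocyte's main product, lay between 13.6 and 13.9 on all arrays. Of 9 hepatocyte markers, 2 fell at 120 mg/kg DMPT and 1 with p-toluidine, and their mean level went from 11.8 to 11.6 and from 11.6 to 11.4. Of 9 markers of sinusoidal endothelium and stellate cells, 1 fell at 60 mg/kg DMPT and 0 at 120 mg/kg, and with p-toluidine 2 and 1 fell at these doses. Their mean level was 6.58 in DMPT vehicle (6.15 to 6.79), 6.36 at 60 mg/kg (6.20 to 6.49) and 6.50 at 120 mg/kg (6.34 to 6.77). It was 5.94 in p-toluidine vehicle (5.83 to 6.05), 5.76 at 60 mg/kg (5.57 to 5.97) and 5.82 at 120 mg/kg (5.64 to 5.94). None of the 9 was at 0. The part of either marker list in the subunits' changes was not tested. All 36 subunits lay above the median brightness of the probe sets, and Psma6 was the highest in vehicle, with a mean of 10.0 in the DMPT set.

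At 120 mg/kg DMPT, 10 of the 36 subunits fell and none rose. The 10 were Psma7, Psmb1 and Psmb7 of the core and Psmc2, Psmc4, Psmc5, Psmd1, Psmd4, Psmd7 and Psmd11 of the cap, with changes between -0.19 and -0.34, that is 1.14 to 1.27 times lower. The share was 27.8% of the subunits, against 5.53% of all probe sets called lower and 4.27% called higher at that dose. Among the brighter probe sets alone, to which the subunits belong, 12.6% were called lower and 12 of the 36 subunits were. The median change over the 36 was -0.13, a ratio of 0.914 to vehicle. Of the 36 changes 31 lay below 0, against 49.7% of all probe sets and 56.9% of the brighter probe sets. Leaving out the narrow arrays gave 8 of 36 against 3.74% of all probe sets. Fitting only the arrays compared gave 6, and leaving out vehicle replicate 3, vehicle replicate 4 or 120 mg/kg replicate 5 gave 5, 6 and 6.

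**Figure D1:**
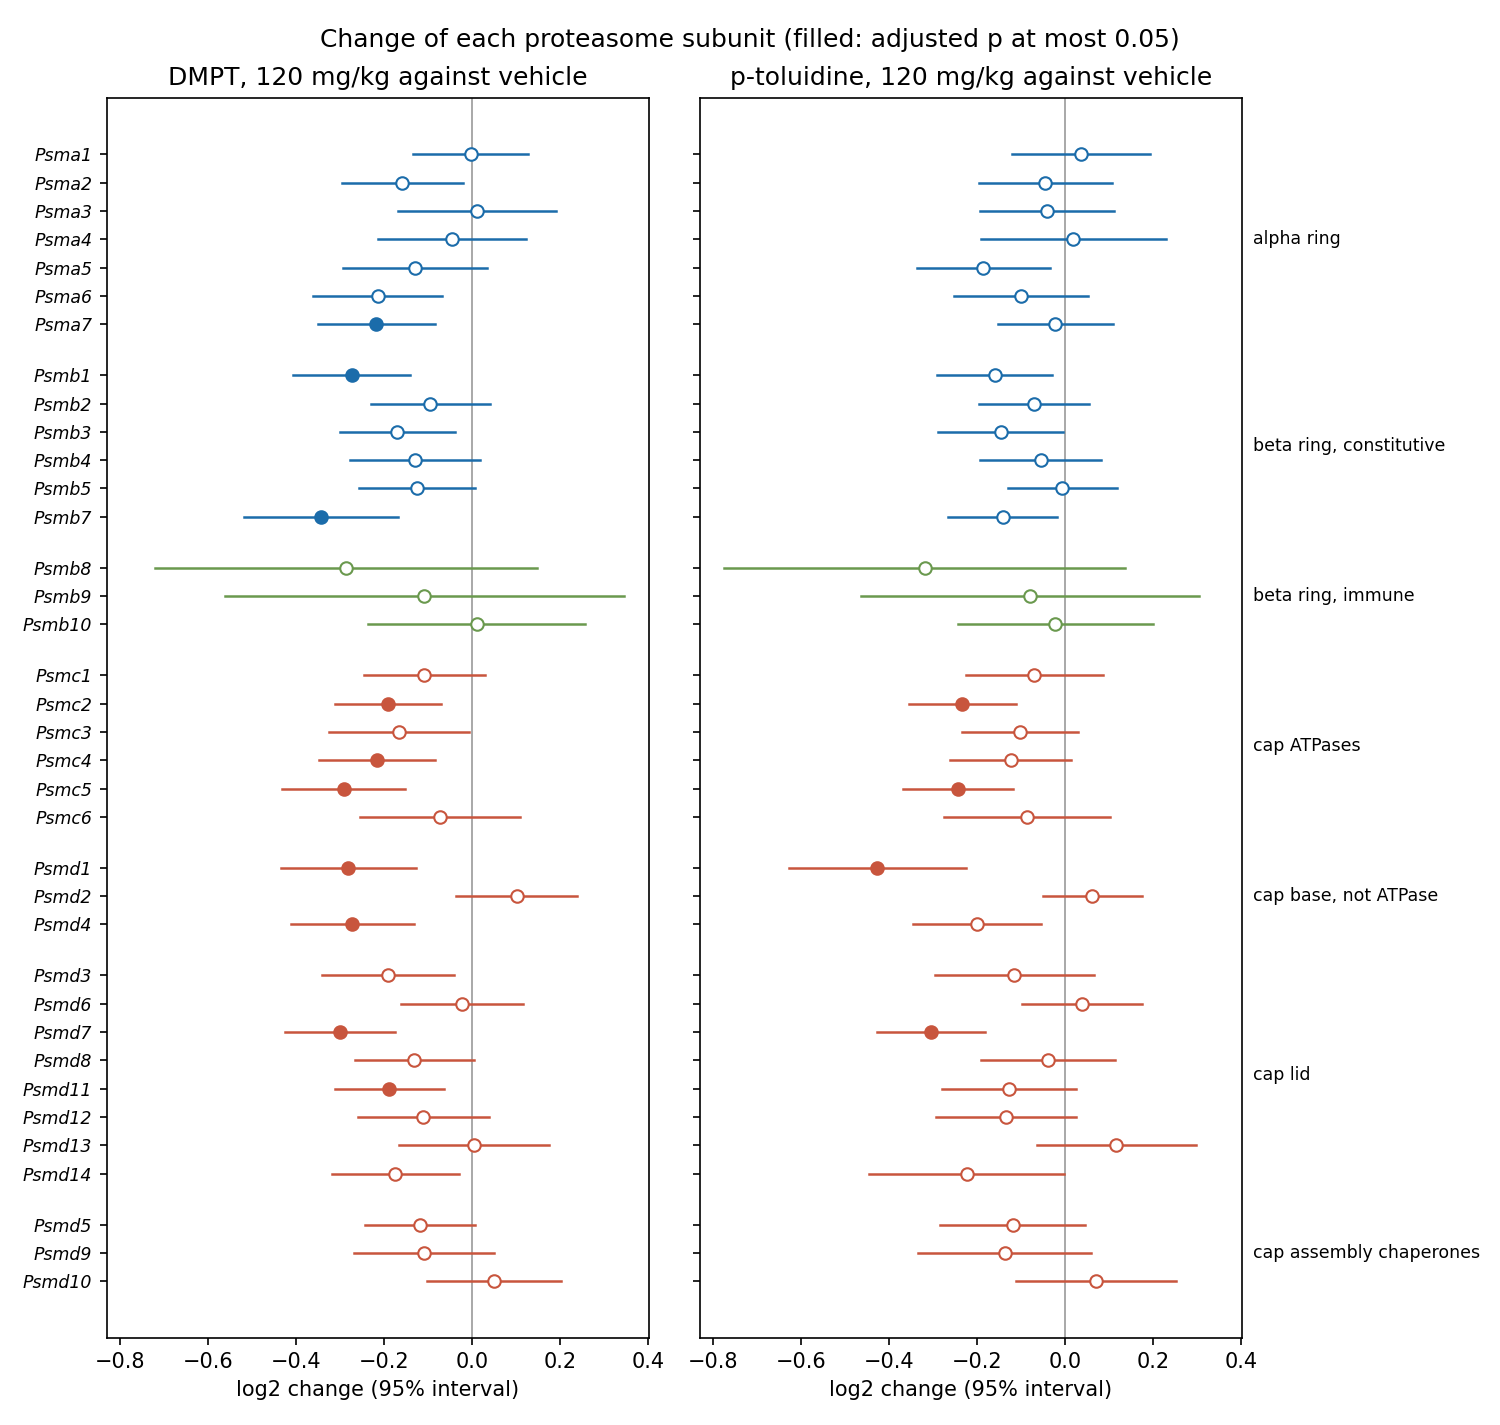
Log2 change at 120 mg/kg against the vehicle of the same chemical for each subunit gene, with its 95% confidence interval, for DMPT and p-toluidine. Filled points passed an adjusted p of 0.05 in limma, 10 of 36 for DMPT and 4 of 36 for p-toluidine, and all of these lie below 0.

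In the cap lid, which holds the deubiquitinating subunit and its scaffold, 2 of 8 genes fell at 120 mg/kg DMPT. Psmd7, the inactive partner of the deubiquitinase Psmd14, gave 7.92, 7.84, 7.92, 7.89 and 7.88 in the 5 vehicle arrays and 7.58, 7.55, 7.62, 7.69 and 7.50 at 120 mg/kg. Every dosed array lay below every vehicle array, and the vehicle arrays lay close together. The change was -0.30 (SE 0.0611, 1.23 times lower, limma adjusted p = 0.00125), and at 60 mg/kg it was -0.28 (adjusted p = 0.00467), again without overlap. Its second probe set also fell, by 0.38 at 120 mg/kg (adjusted p = 0.00177). Psmd11, a scaffold subunit, gave 8.50, 8.47, 8.48, 8.54 and 8.55 in vehicle and 8.34, 8.24, 8.50, 8.30 and 8.25 at 120 mg/kg. All dosed arrays but replicate 3 lay below vehicle. Its change of -0.19 (SE 0.0607, limma adjusted p = 0.0452) lost the call in 9 of the 10 fits that left out 1 array, all but the fit without 120 mg/kg replicate 3. The deubiquitinase Psmd14 itself read 7.96, 8.12, 8.21, 8.27 and 8.21 in vehicle and 8.13, 8.09, 7.93, 7.91 and 7.85 at 120 mg/kg, with 3 dosed arrays below the lowest vehicle array. Its change of -0.17 did not pass (adjusted p = 0.13), and nor did Psmd3, a lid scaffold subunit, at -0.19 (adjusted p = 0.106), although its groups did not overlap.

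In the base of the cap, 2 of the 3 subunits that are not ATPases fell at 120 mg/kg DMPT. Psmd4, a receptor that binds ubiquitin chains, gave 7.38, 7.33, 7.53, 7.33 and 7.50 in vehicle and 7.08, 7.16, 7.05, 7.24 and 7.17 at 120 mg/kg. The groups did not overlap. The change was -0.27 (SE 0.0681, 1.21 times lower, limma adjusted p = 0.00857). Psmd1, the large scaffold of the base, gave 7.11, 7.14, 7.30, 7.11 and 7.00 in vehicle and 6.80, 6.91, 6.83, 6.71 and 7.02 at 120 mg/kg. Of the dosed arrays, 4 lay below the lowest vehicle array and replicate 5 lay just above it. The change was -0.28 (SE 0.0756, 1.21 times lower, limma adjusted p = 0.0145), and the call was lost without vehicle replicate 3 (adjusted p = 0.0551). Psmd2, the other large scaffold of the base, stood at 0.10 (adjusted p = 0.416), the highest change of any subunit at that dose.

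Among the 6 ATPases that unfold substrates, 3 fell at 120 mg/kg DMPT and all 6 changes lay below 0. Psmc5 gave 7.58, 7.66, 7.86, 7.76 and 7.63 in vehicle and 7.38, 7.37, 7.44, 7.31 and 7.52 at 120 mg/kg. Psmc4 gave 8.20, 8.22, 8.43, 8.32 and 8.26 in vehicle and 8.09, 8.12, 7.99, 8.12 and 8.03 at 120 mg/kg. Psmc2 gave 9.22, 9.31, 9.40, 9.43 and 9.42 in vehicle and 9.12, 9.21, 9.12, 9.21 and 9.17 at 120 mg/kg. In each of the 3 genes the 5 dosed arrays lay below the 5 vehicle arrays, by the narrowest margin in Psmc2. The changes were -0.29 (SE 0.0682, limma adjusted p = 0.00474) for Psmc5, -0.22 (SE 0.0648, adjusted p = 0.0297) for Psmc4 and -0.19 (SE 0.0592, adjusted p = 0.0367) for Psmc2. Psmc5 kept its call whichever array was left out. Psmc4 lost it without vehicle replicate 3 or 4 or 120 mg/kg replicate 3 or 5. Psmc2 lost it without vehicle replicate 3, 4 or 5 or 120 mg/kg replicate 1, 3 or 5. The other ATPases, Psmc1, Psmc3 and Psmc6, changed by -0.11, -0.16 and -0.07 without passing.

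The 3 assembly chaperones counted with the cap by their letters, which hold the ATPases during building and leave the finished particle, had no call at any dose of either chemical. Psmd5 gave 7.65, 7.54, 7.51, 7.51 and 7.49 in DMPT vehicle and 7.50, 7.38, 7.46, 7.42 and 7.35 at 120 mg/kg (limma adjusted p = 0.27). Replicate 1 was the highest vehicle array, and 4 dosed arrays lay below the lowest. Psmd9 gave 6.22, 6.51, 6.25, 6.55 and 6.33 in vehicle and 6.29, 6.26, 6.22, 6.30 and 6.25 at 120 mg/kg, with a change of -0.11 (adjusted p = 0.467) and wide overlap. Psmd10 stood at 0.05. Without the 3 chaperones the cap median at 120 mg/kg DMPT was -0.17, against -0.15 with them.

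In the beta ring, the cutting subunit Psmb7 had the lowest change of the 36 subunits at 20, 60 and 120 mg/kg DMPT. It gave 8.11, 8.02, 8.15, 8.12 and 7.99 in vehicle, 7.76, 7.72, 7.83, 7.68 and 7.65 at 20 mg/kg, 7.98, 7.89, 7.44, 7.72 and 7.65 at 60 mg/kg and 7.72, 7.83, 7.65, 7.74 and 7.73 at 120 mg/kg. At each of these 3 doses every dosed array lay below every vehicle array. The changes were -0.35, -0.34 and -0.34 (SE 0.0857 at each dose, limma adjusted p = 0.0208, 0.0136 and 0.00843), nearly equal over the 3 doses. The call at 20 mg/kg was lost without vehicle replicate 3 or 20 mg/kg replicate 4 or 5, and that at 60 mg/kg without 60 mg/kg replicate 3. Psmb1, a beta subunit with no cutting site, gave 9.58, 9.60, 9.69, 9.71 and 9.67 in vehicle and 9.39, 9.38, 9.39, 9.37 and 9.35 at 120 mg/kg. Its 5 dosed arrays spanned only 9.35 to 9.39 and lay below all vehicle arrays. The change was -0.27 (SE 0.0648, limma adjusted p = 0.00533).

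Psmb5, which carries the main chymotrypsin-like cutting site, fell at 20 and 60 mg/kg DMPT and had no call at 120 mg/kg. It gave 8.95, 8.87, 9.12, 9.17 and 9.02 in vehicle, 8.73, 8.72, 8.79, 8.68 and 8.77 at 20 mg/kg, 8.88, 8.77, 8.60, 8.76 and 8.78 at 60 mg/kg and 8.92, 8.99, 8.82, 8.85 and 8.93 at 120 mg/kg. The groups did not overlap at 20 mg/kg, 4 dosed arrays lay below vehicle at 60 mg/kg and 2 did at 120 mg/kg. The changes were -0.29 (limma adjusted p = 0.0111), -0.27 (adjusted p = 0.0102) and -0.12 (adjusted p = 0.269). The difference between 20 and 120 mg/kg was not tested.

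In the alpha ring, 1 of 7 genes fell at 120 mg/kg DMPT and 2 fell at 60 mg/kg. Psma7 gave 9.10, 9.17, 9.24, 9.31 and 9.25 in vehicle and 9.01, 8.94, 9.02, 9.09 and 8.91 at 120 mg/kg. The groups did not overlap, by a narrow margin. The change was -0.22 (SE 0.0653, limma adjusted p = 0.0294), lost without vehicle replicate 3, 4 or 5 or 120 mg/kg replicate 1, 2 or 5, and at 60 mg/kg it was -0.28 (adjusted p = 0.00846). Psma6 gave 9.86, 10.00, 10.19, 10.10 and 9.99 in vehicle and 9.75, 9.89, 9.66, 9.90 and 9.85 at 120 mg/kg, with 3 dosed arrays below vehicle. It passed at 60 mg/kg (-0.24, adjusted p = 0.0435) and missed the threshold at 120 mg/kg (-0.21, adjusted p = 0.0559). The 60 mg/kg call was lost in 8 of the 10 fits that left out 1 array, all but those without vehicle replicate 1 or 60 mg/kg replicate 1. Psma1 and Psma3 stood at -0.00 and 0.01 at 120 mg/kg, the highest changes of the core.

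**Figure D2:**
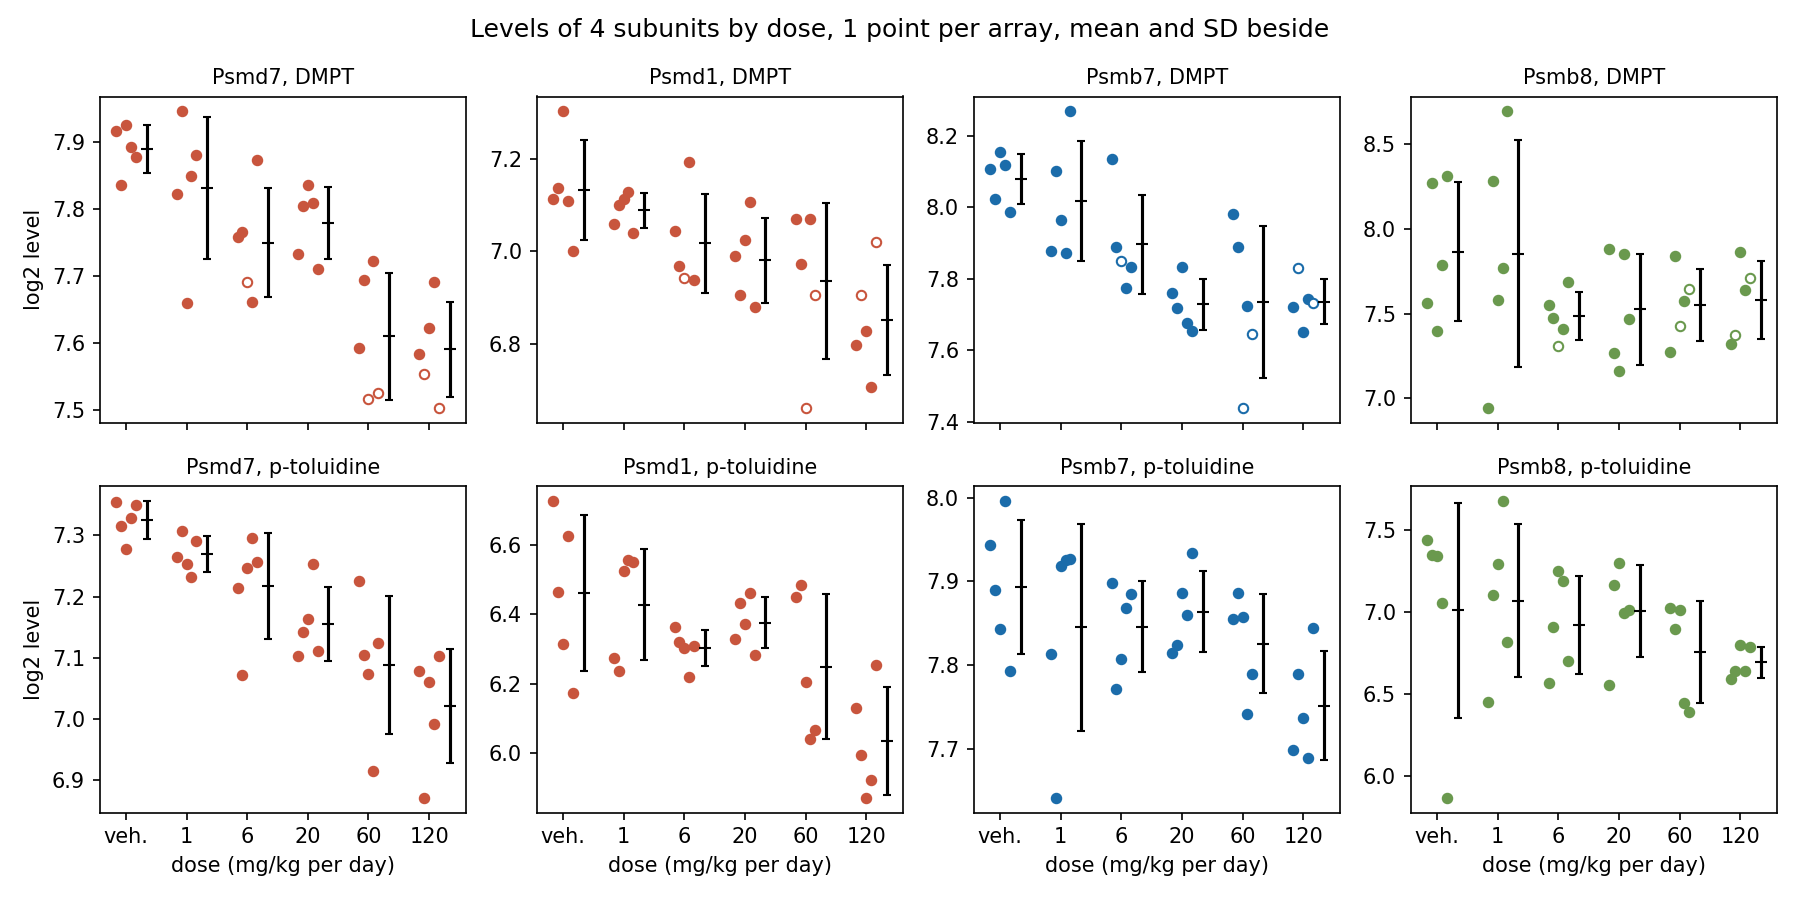
Log2 level of 4 subunits on each array, by chemical and dose in mg/kg per day, with the group mean and SD beside the points and the 5 narrow arrays open. Psmd7 lies below vehicle on all 5 arrays at 120 mg/kg of both chemicals, Psmb7 does so for DMPT at 20 mg/kg and above, Psmd1 falls with both chemicals at 120 mg/kg, and the immune subunit Psmb8 spreads from 7.40 to 8.31 in DMPT vehicle alone.

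At the lower doses of DMPT, few single subunits passed. At 20 mg/kg only Psmb5 and Psmb7 fell, 2 of 36 against 1.05% of all probe sets lower and, among the brighter probe sets, 3 of 36 against 2.85%. Of the 36 changes 29 lay below 0, against 54.7% of all probe sets and 49.2% of the brighter probe sets. The count of calls was 1 without vehicle replicate 3 or without 20 mg/kg replicate 4 or 5. At 6 mg/kg limma called 0 subunits, against 0.113% of all probe sets lower. At that dose 33 of 36 changes lay below 0, against 47.7% of all probe sets and 54.6% of the brighter probe sets, and 13 subunits had an unadjusted p under 0.05, all of them lower, against 8.75% of all probe sets in either direction. The smallest adjusted p was 0.182, for Psma2, an alpha ring subunit. At 1 mg/kg limma called 0 subunits and 0% of all probe sets, and 1 subunit had an unadjusted p under 0.05 against 5.29% of all probe sets. There 31 changes lay below 0, against 52.8% of all probe sets and 48.7% of the brighter probe sets. The subunits share the same arrays, and their mean deviation from vehicle at 1 mg/kg ran from -0.17 to 0.11, below 0 on 3 of 5 arrays.

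At 60 mg/kg DMPT, 9 subunits fell, against 3.26% of all probe sets lower: Psma6, Psma7, Psmb1, Psmb5 and Psmb7 of the core and Psmc4, Psmc5, Psmd4 and Psmd7 of the cap. Among the brighter probe sets it was 12 of 36 against 8.2%. Of the 36 changes 32 lay below 0, against 49.2% of all probe sets and 56.5% of the brighter probe sets. The count of calls rested on the narrow arrays 3 and 5 of that group more than at 120 mg/kg. Without the narrow arrays 1 subunit, Psma7, fell against 1.47% of all probe sets, and with quantile normalisation after leaving them out 4 fell (Psma7, Psmb1, Psmb5 and Psmd7). Without vehicle replicate 3 the count was 5 and without 60 mg/kg replicate 3 it was 4. Fitting only the arrays compared gave 3 (Psma7, Psmb1 and Psmd7).

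**Figure D3:**
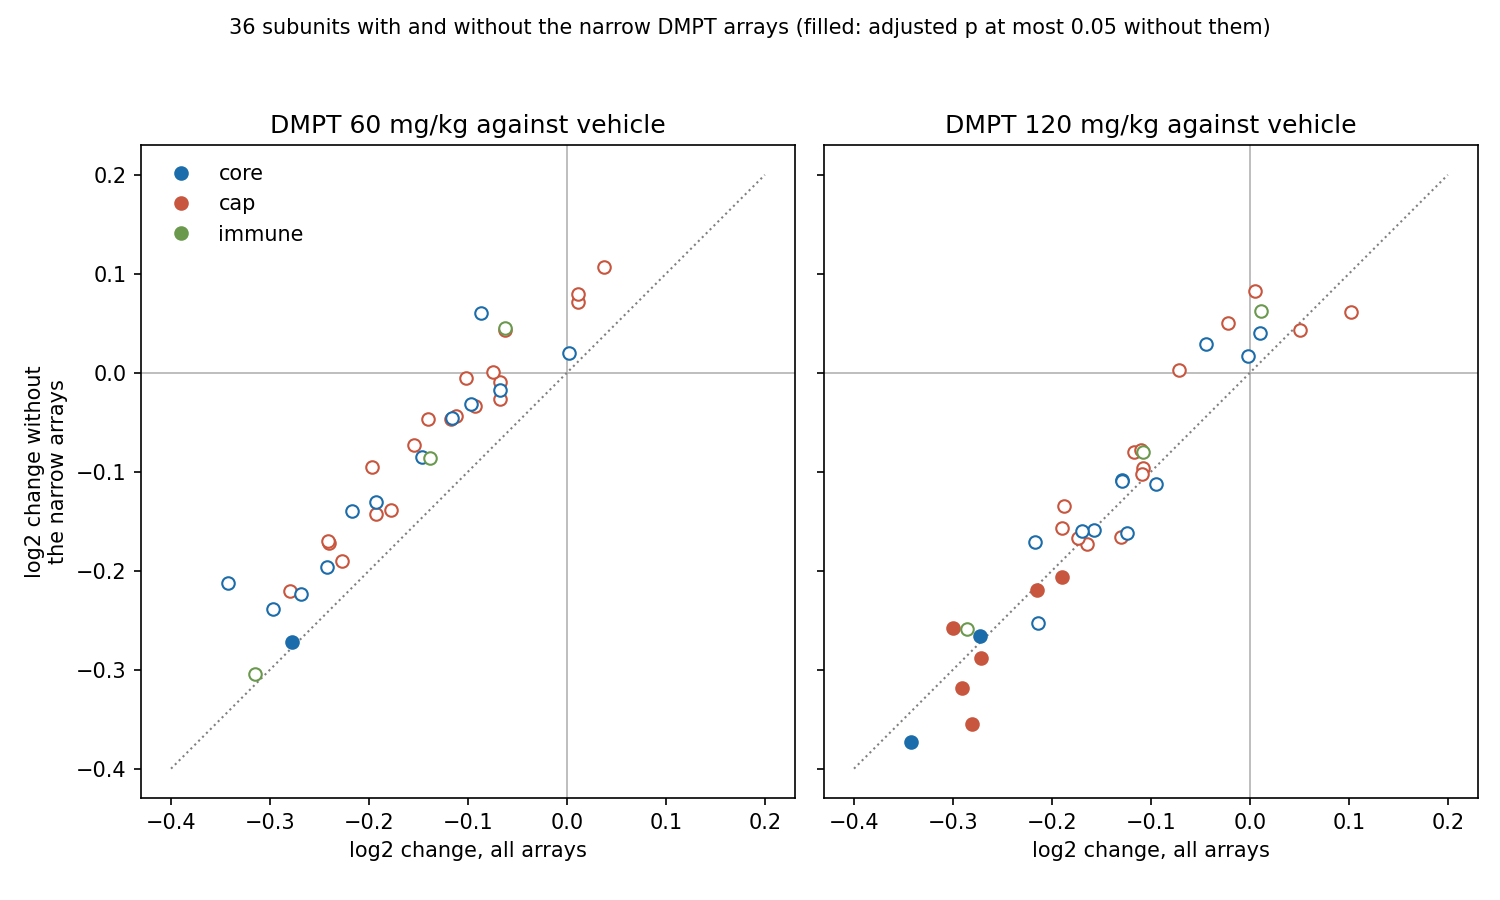
Log2 change of each subunit with all 30 DMPT arrays against the change without the 5 narrow arrays, at 60 and 120 mg/kg DMPT, filled where limma called the change without them. The core median at 60 mg/kg moves from -0.19 to -0.13 and the cap median from -0.11 to -0.05, and the subunits that fell drop from 9 to 1 at 60 mg/kg and from 10 to 8 at 120 mg/kg.

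The number of subunits whose 5 dosed arrays all lay below the 5 vehicle arrays was 0, 6, 5, 8 and 9 of 36 at 1, 6, 20, 60 and 120 mg/kg DMPT. Over all probe sets the share was 0.619%, 1.27%, 2.68%, 3.24% and 4.82% at these doses. For p-toluidine the counts were 0, 0, 1, 2 and 3, and over all probe sets the share was 0.367%, 0.812%, 1.2%, 2.13% and 3.89%. At 6 mg/kg DMPT the 6 were Psma1, Psma2, Psmb1, Psmb3, Psmc6 and Psmd5, and none of these passed the adjusted test there. Over the rank of the dose, limma called a falling trend in 14 subunits with DMPT, against 8.58% of all probe sets. These were Psma6, Psma7, Psmb1, Psmb3, Psmb5 and Psmb7 of the core and Psmc2, Psmc3, Psmc4, Psmc5, Psmd1, Psmd4, Psmd7 and Psmd11 of the cap. Psmd7 had the smallest adjusted p, 5.24e-05, with a slope of -0.06 per dose step, and Psmb7 had the steepest slope of the module, -0.08 per step (adjusted p = 0.000214).

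Core and cap were compared by class medians and by the mean deviation of each array from its vehicle mean, as a description. With DMPT the core medians were -0.06, -0.16, -0.15, -0.19 and -0.13 at 1, 6, 20, 60 and 120 mg/kg, and the cap medians were -0.04, -0.11, -0.05, -0.11 and -0.15. The core median lay lower than the cap median at 1, 6, 20 and 60 mg/kg. The order held in each of the 10 fits per dose that left out 1 array, though these fits share most of their arrays. At 120 mg/kg the order was not stable, since the core median lay lower in 4 of the 10 such fits (those without vehicle replicate 2 or 4 or 120 mg/kg replicate 3 or 4). Per array, the core mean minus the cap mean ran from -0.04 to 0.02 in DMPT vehicle. It ran from -0.09 to 0.07 at 1 mg/kg and from -0.12 to 0.03 at 6 mg/kg, below 0 on 4 of 5 arrays at each dose. At 20 mg/kg DMPT it ran from -0.13 to -0.07, below 0 on all 5 arrays. It was below 0 on all 5 at 60 mg/kg and on 3 of 5 at 120 mg/kg. With p-toluidine the core medians were 0.03, -0.03, -0.03, -0.07 and -0.05 and the cap medians 0.01, -0.02, -0.02, -0.08 and -0.12. Leaving out 1 array moved each of these 10 medians but that of the cap at 120 mg/kg by over 1.5 times or across 0, and the core median at 120 mg/kg ran from -0.10 without 120 mg/kg replicate 5 to -0.04 without 120 mg/kg replicate 2. At 120 mg/kg p-toluidine the core minus cap difference ran from 0.03 to 0.07, above 0 on all 5 arrays, against -0.03 to 0.04 in vehicle. The cap median lay lower than the core median at 120 mg/kg p-toluidine in all 10 fits that left out 1 array. With all arrays it also lay lower at 120 mg/kg DMPT, where the order was not stable. At 20 mg/kg the core median lay lower in all 10 such fits with both chemicals, by core minus cap of -0.0077 with all p-toluidine arrays. At 60 mg/kg the core median lay lower in all 10 with DMPT and in 5 with p-toluidine. Whether the chemicals differ in this order was not tested.

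**Figure D4:**
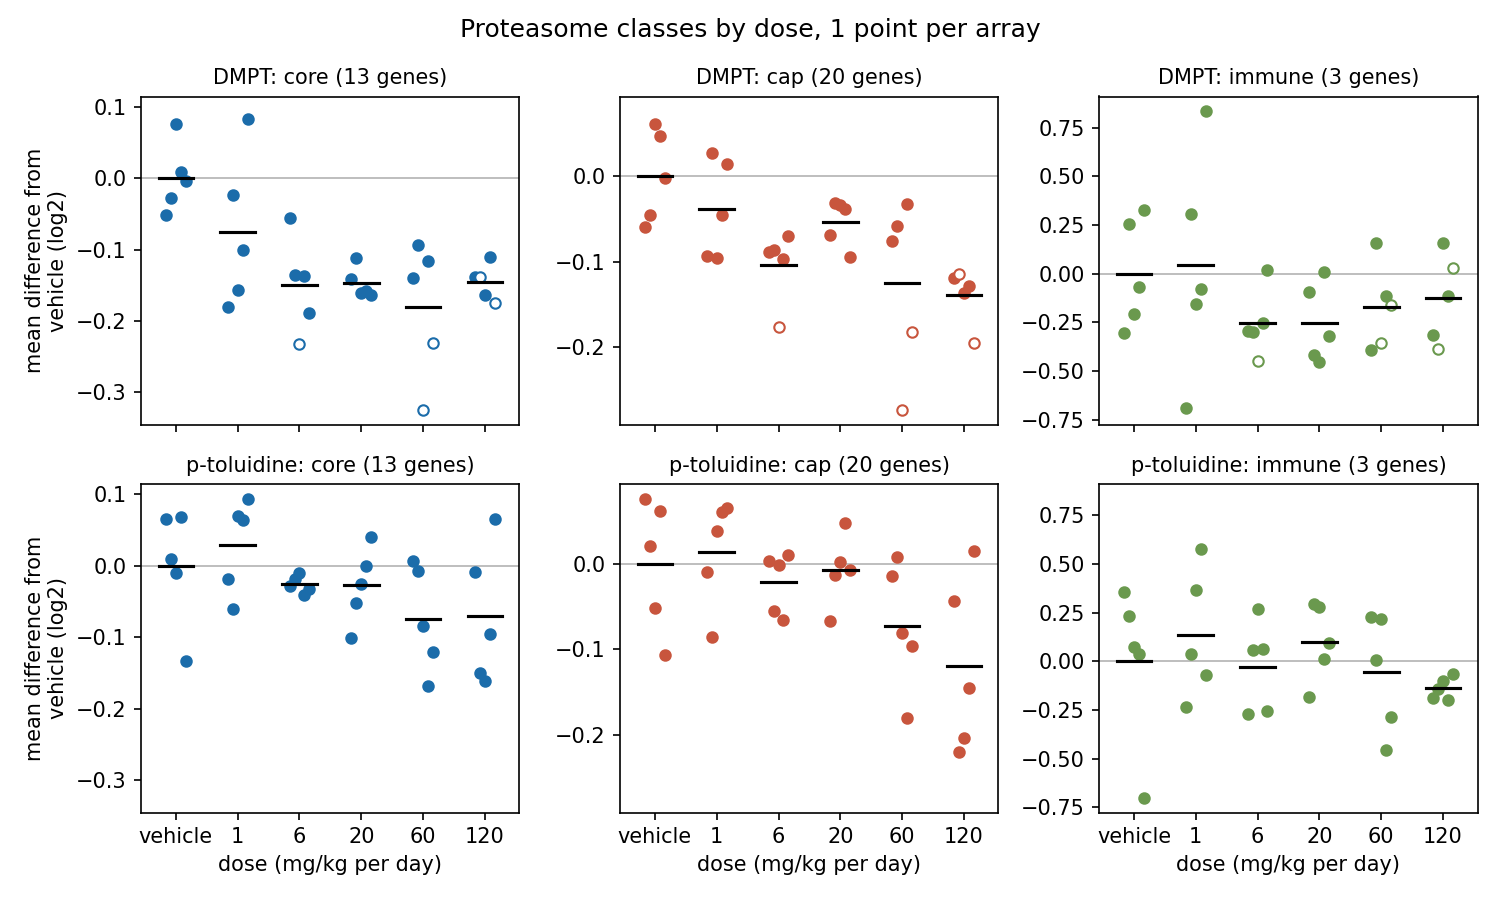
Mean deviation from the vehicle mean, in log2 units, over the core, cap and immune subunits on each array, by dose in mg/kg per day, with the group mean as a bar and the 5 narrow arrays open. The DMPT core mean lies between -0.18 and -0.15 from 6 mg/kg on, the p-toluidine cap mean is lowest at 120 mg/kg, at -0.12, and the immune subunits spread from -0.69 to 0.83 at 1 mg/kg DMPT.

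With p-toluidine, 4 of 36 subunits fell at 120 mg/kg and none rose, against 5.07% of all probe sets lower and 5.68% higher. Among the brighter probe sets the count was 5 of 36 against 11.4% of probe sets. All 4 belonged to the cap: Psmc2, Psmc5, Psmd1 and Psmd7. No core subunit was called, and 4 of the 13 had an unadjusted p under 0.05, against 22.3% of all probe sets. The median over the 36 was a ratio of 0.933 to vehicle. Of the 36 changes 30 lay below 0, against 50.3% of all probe sets and 52.8% of the brighter probe sets. Leaving out vehicle replicate 5 gave 7 subunits and fitting only the arrays compared gave 2, Psmd1 and Psmd7.

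Psmd7 gave 7.36, 7.32, 7.28, 7.33 and 7.35 in p-toluidine vehicle, 7.23, 7.11, 7.07, 6.91 and 7.12 at 60 mg/kg and 7.08, 6.87, 7.06, 6.99 and 7.10 at 120 mg/kg. On the probe set that represents the gene, every array at 20, 60 and 120 mg/kg lay below every vehicle array. The change was -0.30 at 120 mg/kg (SE 0.0603, 1.24 times lower, limma adjusted p = 0.000725). At 60 mg/kg it was -0.24 (SE 0.0603, adjusted p = 0.0174). Psmd7 was the only subunit called at that dose, 1 of 36, near the 2.39% of all probe sets called lower. Among the brighter probe sets it was also 1 of 36, against 6.02%, a share that the count did not exceed. Of the 36 changes 27 lay below 0, against 49.8% of all probe sets and 52.9% of the brighter probe sets. The 60 mg/kg call of Psmd7 was lost without 60 mg/kg replicate 4 (adjusted p = 0.0781), and without vehicle replicate 5 the count at that dose was 2. The second probe set of Psmd7 overlapped with p-toluidine vehicle at 20, 60 and 120 mg/kg. It read 6.44 to 6.63 in vehicle and 6.44 to 6.65 at 20 mg/kg. At 120 mg/kg it read 6.11 to 6.46, below vehicle on all arrays but replicate 5. Psmd1 gave 6.73, 6.46, 6.31, 6.62 and 6.17 in vehicle and 6.13, 6.00, 5.87, 5.92 and 6.25 at 120 mg/kg, with 4 dosed arrays below the lowest vehicle array and a wide vehicle spread. Its change was -0.43 (SE 0.0984, 1.34 times lower, limma adjusted p = 0.00345), the largest of any subunit.

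The ATPase Psmc5 gave 7.12, 7.11, 6.92, 7.07 and 6.92 in p-toluidine vehicle and 6.73, 6.73, 6.74, 6.82 and 6.90 at 120 mg/kg. Psmc2 gave 8.56, 8.45, 8.46, 8.65 and 8.45 in vehicle and 8.36, 8.16, 8.21, 8.30 and 8.37 at 120 mg/kg. Both genes had all 5 dosed arrays below vehicle. The changes were -0.24 (SE 0.0617, limma adjusted p = 0.0078) and -0.23 (SE 0.0597, adjusted p = 0.00836), and all 4 calls at 120 mg/kg held whichever array was left out. Psmd4 gave 6.83, 6.74, 6.73, 6.76 and 6.73 in vehicle and 6.57, 6.42, 6.48, 6.54 and 6.78 at 120 mg/kg, below vehicle on all arrays but replicate 5, and its change of -0.20 missed the threshold (adjusted p = 0.0713). Psmc4 gave 7.70, 7.79, 7.61, 7.78 and 7.64 in vehicle and 7.74, 7.42, 7.54, 7.48 and 7.72 at 120 mg/kg, with 3 dosed arrays below vehicle (adjusted p = 0.296).

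In the lid, Psmd14 gave 7.67, 7.56, 7.62, 7.46 and 7.24 in p-toluidine vehicle and 7.74, 7.12, 6.97, 7.07 and 7.54 at 120 mg/kg, with 3 dosed arrays below vehicle and 1 above it (limma adjusted p = 0.219). Psmd11 gave 7.55, 7.74, 7.78, 7.79 and 7.97 in vehicle and 7.71, 7.57, 7.58, 7.68 and 7.66 at 120 mg/kg, wholly within the vehicle range. The chaperones also overlapped with vehicle. Psmd5 gave 6.83, 6.86, 6.65, 6.75 and 6.48 in vehicle and 6.77, 6.43, 6.65, 6.52 and 6.61 at 120 mg/kg, and Psmd9 gave 5.83, 5.74, 5.24, 5.76 and 5.60 in vehicle and 5.41, 5.42, 5.55, 5.54 and 5.57 at 120 mg/kg. The trend over dose rank was called lower in 8 subunits with p-toluidine, against 7.05% of all probe sets. They were Psma5 and Psmb1 of the core and Psmc2, Psmc5, Psmd1, Psmd4, Psmd7 and Psmd14 of the cap, led by Psmd7 (adjusted p = 2.02e-05).

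Among the core subunits, Psma5 of the alpha ring gave 8.14, 8.06, 8.06, 8.06 and 7.76 in p-toluidine vehicle and 7.83, 7.72, 7.72, 7.90 and 7.98 at 120 mg/kg. Vehicle replicate 5 stood apart below the other vehicle arrays, and 2 dosed arrays lay below it. The change was -0.18 (SE 0.0738, limma adjusted p = 0.115), and with DMPT, where the vehicle arrays were 8.83, 8.84, 9.05, 8.71 and 8.88 and the 120 mg/kg arrays 8.62, 8.74, 8.79, 8.85 and 8.66, it was -0.13 (adjusted p = 0.374). Psma6 gave 9.44, 9.27, 9.33, 9.38 and 9.12 in p-toluidine vehicle and 9.41, 9.12, 9.03, 9.13 and 9.35 at 120 mg/kg, and Psma7 gave 8.45, 8.57, 8.54, 8.41 and 8.46 in vehicle and 8.60, 8.39, 8.37, 8.39 and 8.57 at 120 mg/kg. Both groups overlapped in each gene, with 2 dosed arrays of Psma7 above all vehicle arrays. Psmb1 gave 8.90, 8.86, 8.80, 9.02 and 8.67 in vehicle and 8.62, 8.61, 8.64, 8.76 and 8.82 at 120 mg/kg, with 3 dosed arrays below vehicle (-0.16, adjusted p = 0.117). Psmb7 gave 7.94, 7.89, 7.84, 8.00 and 7.79 in vehicle and 7.70, 7.79, 7.74, 7.69 and 7.84 at 120 mg/kg, with 4 below vehicle (-0.14, adjusted p = 0.146). Psmb5 gave 8.37, 8.36, 8.22, 8.36 and 8.31 in vehicle and 8.33, 8.23, 8.29, 8.26 and 8.48 at 120 mg/kg, with a change of -0.01.

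With the lower doses of p-toluidine no subunit passed. Limma called 0 subunits at 1, 6 and 20 mg/kg, against 0%, 0% and 0.303% of all probe sets lower, and the subunits with an unadjusted p under 0.05 numbered 1, 0 and 2 of 36, below the 6.42%, 8.24% and 11% of all probe sets. The changes below 0 numbered 13, 26 and 22 of 36 at these doses, against 49.8%, 47.8% and 48.3% of all probe sets. Among the brighter probe sets the shares below 0 were 55.8%, 55.0% and 51.6%.

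The responses to both chemicals were compared at equal doses, over 5 doses and 36 subunits, with p-values adjusted over all probe sets. Limma called 0 subunits at each dose, and at 1, 6, 20, 60 and 120 mg/kg the subunits with an unadjusted p under 0.05 numbered 2, 6, 4, 1 and 1 of 36. Over all probe sets the share under 0.05 was 6.96%, 6.04%, 7.34%, 4.79% and 6.63%, so the counts at 1, 60 and 120 mg/kg lay below it. Of all probe sets, 0% were called at 1, 6, 20 and 60 mg/kg and 0.00644% at 120 mg/kg. The smallest adjusted p over the subunits was 0.657, 0.649, 0.387, 0.984 and 0.675. At 120 mg/kg the DMPT response minus the p-toluidine response was -0.20 for Psma7 (95% confidence interval -0.37 to -0.02), -0.20 for Psmb7 (-0.41 to 0.00) and 0.15 for Psmd1 (-0.10 to 0.39). For Psmd7 it was 0.01 (-0.15 to 0.16), so a difference of up to about 0.15 either way was within the interval. The pattern over the subunits at 120 mg/kg correlated between the chemicals, which had separate vehicle groups, with a Pearson r of 0.787 and a Spearman rho of 0.776 over 36 genes, which share the arrays of each chemical. At 20 mg/kg it was 0.191 and 0.337. The changes of 28 subunits lay below 0 with both chemicals at 120 mg/kg, and the 4 subunits called with p-toluidine were 40% of those called with DMPT and 100% of its own.

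The immune subunits had no call at any dose of either chemical, and none had an unadjusted p under 0.05. Psmb8, the interferon-induced counterpart of Psmb5, gave 7.57, 8.27, 7.40, 7.79 and 8.31 in DMPT vehicle and 7.32, 7.37, 7.86, 7.64 and 7.71 at 120 mg/kg. Psmb9, the counterpart of Psmb6, gave 7.19, 7.90, 7.35, 7.35 and 7.92 in vehicle and 7.21, 7.01, 7.90, 7.28 and 7.78 at 120 mg/kg. Psmb10, the counterpart of Psmb7, gave 6.37, 6.63, 6.67, 6.71 and 6.80 in vehicle and 6.56, 6.50, 6.75, 6.78 and 6.64 at 120 mg/kg. The groups overlapped in all 3 genes, and vehicle arrays of Psmb8 differed by more than the module's largest fall. The changes were -0.29 (SE 0.213, limma adjusted p = 0.488), -0.11 (SE 0.222) and 0.01 (SE 0.121). The standard error of Psmb8 was wide, so a change of the size seen in Psmb7 was not detectable in it.

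With p-toluidine, Psmb8 gave 7.44, 7.35, 7.35, 7.06 and 5.87 in vehicle and 6.59, 6.64, 6.80, 6.64 and 6.79 at 120 mg/kg. Psmb9 gave 7.11, 6.91, 6.73, 6.74 and 6.20 in vehicle and 6.59, 6.81, 6.61, 6.58 and 6.71 at 120 mg/kg, and Psmb10 gave 6.22, 6.14, 5.85, 6.03 and 5.54 in vehicle and 5.95, 5.83, 6.00, 5.89 and 6.01 at 120 mg/kg. Vehicle replicate 5 was the lowest vehicle array in each of the 3, and all dosed arrays lay within the vehicle range. For Psmb8 this rested on replicate 5 alone, since all dosed arrays lay below the other vehicle arrays (7.06 to 7.44). With 1 array left out the change of Psmb8 ran from -0.61 to -0.21, so its size hung on single arrays. The changes were -0.32 (SE 0.223, limma adjusted p = 0.447), -0.08 (SE 0.188) and -0.02 (SE 0.108). As a class, the immune subunits had a per-array SD of 0.28 in DMPT vehicle and 0.57 at 1 mg/kg, against 0.05 for the core and the cap in vehicle. Leukocyte markers, 9 genes on the array of which Cd3d rose at 120 mg/kg DMPT and none was called with p-toluidine, had a mean level of 3.01 in DMPT vehicle (2.80 to 3.10) and 3.12 at 120 mg/kg (3.02 to 3.21), and 2.37 and 2.39 in the p-toluidine groups. Cd3d read 1.52 to 2.06 on the DMPT arrays, far below the array medians, so no direction is read from it. Of this list only Ptprc and Lck had a median level above the array medians. Of 8 macrophage markers, of which Cd5l fell at 120 mg/kg p-toluidine, the mean level was 6.91 and 6.92 in the DMPT groups, and 6.45 (6.38 to 6.52) and 6.22 (6.12 to 6.30) in the p-toluidine groups. The part of these cells in the immune subunits' levels was not tested.

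Psmc3ip, which is not a subunit, gave 4.06, 4.25, 4.48, 3.96 and 4.29 in DMPT vehicle and 4.06, 4.15, 4.31, 4.11 and 4.34 at 120 mg/kg. With p-toluidine it gave 2.99, 3.28, 3.65, 3.07 and 3.14 in vehicle and 3.31, 3.25, 3.22, 3.27 and 3.48 at 120 mg/kg. The groups overlapped and it had no call.

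In 7 genes more than 1 probe set was measured, and those of Psmd14 did not move together. A second, dimmer probe set of Psmd14, near the array medians in vehicle, gave 3.17, 3.61, 3.42, 3.55 and 4.24 in DMPT vehicle and 4.73, 4.72, 4.58, 4.65 and 4.56 at 120 mg/kg. All dosed arrays lay above all vehicle arrays, while the probe set that represents the gene read lower. The dimmer set rose by 1.05 at 120 mg/kg (SE 0.235, limma adjusted p = 0.00313), by 0.86 at 60 mg/kg (adjusted p = 0.0248) and by 1.00 at 20 mg/kg (adjusted p = 0.0153). With p-toluidine it stood at 0.18 at 120 mg/kg (adjusted p = 0.407), and the difference in response was 0.87 (adjusted p = 0.365). The other Psmd14 probe set fell by 0.35 at 20 mg/kg DMPT (adjusted p = 0.032). A Psmb5 probe set that was called higher at 120 mg/kg DMPT (0.20, adjusted p = 0.045) gave 1.84, 1.82, 2.13, 1.90 and 1.84 in vehicle and 2.14, 2.18, 2.09, 2.21 and 1.91 at 120 mg/kg, far below the array medians, so no direction of the gene is read from it. For Psmd11, another probe set fell by 0.30 with DMPT (adjusted p = 0.00307) and by 0.28 with p-toluidine (adjusted p = 0.0121). For Psmc6, another probe set fell by 0.43 at 120 mg/kg p-toluidine (adjusted p = 0.00731). Which transcripts each probe set reads was not given in the sources used here, so statements on Psmb5, Psmc6, Psmd7, Psmd11 and Psmd14 hold for the probe set named.

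The partners of the proteasome were taken from lists chosen with earlier results of these data known. Their counts stand against 5.53% of all probe sets lower and 4.27% higher at 120 mg/kg DMPT, and 5.07% and 5.68% with p-toluidine. Among 10 genes around the NRF1 control of proteasome genes, Nfe2l1 and Maff rose at 120 mg/kg DMPT and none fell, with p-toluidine Nfe2l1 rose and Nfe2l2 fell, and the other genes had no call at that dose. Nfe2l1, the factor that raises proteasome genes, gave 5.88, 5.81, 5.99, 6.09 and 5.96 in DMPT vehicle and 6.34, 6.12, 6.30, 6.30 and 6.21 at 120 mg/kg. All dosed arrays lay above vehicle. The change was 0.30 (SE 0.0848, limma adjusted p = 0.018) and 0.37 (SE 0.0897, adjusted p = 0.00568) with p-toluidine, where the arrays were 5.29, 5.50, 5.25, 5.37 and 5.75 in vehicle and 5.76, 5.94, 5.57, 5.80 and 5.92 at 120 mg/kg and overlapped through vehicle replicate 5. At 120 mg/kg of both chemicals the transcript of this factor was higher and the called subunit transcripts were lower. At 20 mg/kg DMPT, where Psmb5 and Psmb7 fell, 0 of the 10 genes were called. A link between the factor and the subunits was not tested, and the activity of the factor was not measured. Maff, a small partner protein of such factors, rose by 0.57 at 120 mg/kg DMPT (SE 0.143, adjusted p = 0.00862). Without the narrow arrays the adjusted p of Maff was 0.0707 and that of Nfe2l1 0.00573, and the Nfe2l1 call was lost without vehicle replicate 2 or 120 mg/kg replicate 1. Nfe2l2, the NRF2 factor of the antioxidant response, gave 8.26, 8.27, 8.36, 8.50 and 8.35 in p-toluidine vehicle and 8.18, 8.16, 7.87, 7.90 and 7.92 at 120 mg/kg, all below vehicle, a change of -0.34 (SE 0.101, adjusted p = 0.0226) that was lost without vehicle replicate 4 or 120 mg/kg replicate 3, 4 or 5. At 60 mg/kg p-toluidine it fell by 0.65 (adjusted p = 0.000104).

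Of 8 listed cap receptors and deubiquitinases, whose symbols the rule does not match, 1 fell at 120 mg/kg DMPT and 0 rose. This was close to the 12.6% of the brighter probe sets called lower. Adrm1, a ubiquitin receptor of the cap, gave 5.44, 5.33, 5.10, 5.23 and 5.28 in vehicle and 4.86, 4.94, 4.52, 4.70 and 5.00 at 120 mg/kg. The groups did not overlap. The change was -0.47 (SE 0.0928, limma adjusted p = 0.000818), larger than that of any subunit matched by the symbol rule. With p-toluidine it was -0.24 without a call (adjusted p = 0.066). Of 12 genes for ubiquitin and its enzymes, 2 fell with DMPT and 1 with p-toluidine at 120 mg/kg, against 12.6% and 11.4% of the brighter probe sets called lower, a share that the p-toluidine count did not exceed. Ube2b, a conjugating enzyme, gave 8.35, 8.41, 8.28, 8.37 and 8.27 in DMPT vehicle and 7.80, 7.86, 8.03, 7.86 and 7.93 at 120 mg/kg, and 7.23, 7.20, 7.36, 7.45 and 7.19 in vehicle and 6.86, 6.89, 6.79, 6.85 and 6.95 at 120 mg/kg with p-toluidine. Neither pair of groups overlapped. The changes were -0.44 (SE 0.0672, adjusted p = 3.52e-05) and -0.42 (SE 0.0579, adjusted p = 5.72e-06). Ube2r2, another conjugating enzyme, fell with DMPT by 0.23 (adjusted p = 0.0181, 0.124 without the narrow arrays), a call also lost without vehicle replicate 1 or 120 mg/kg replicate 1 or 2.

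**Figure D5:**
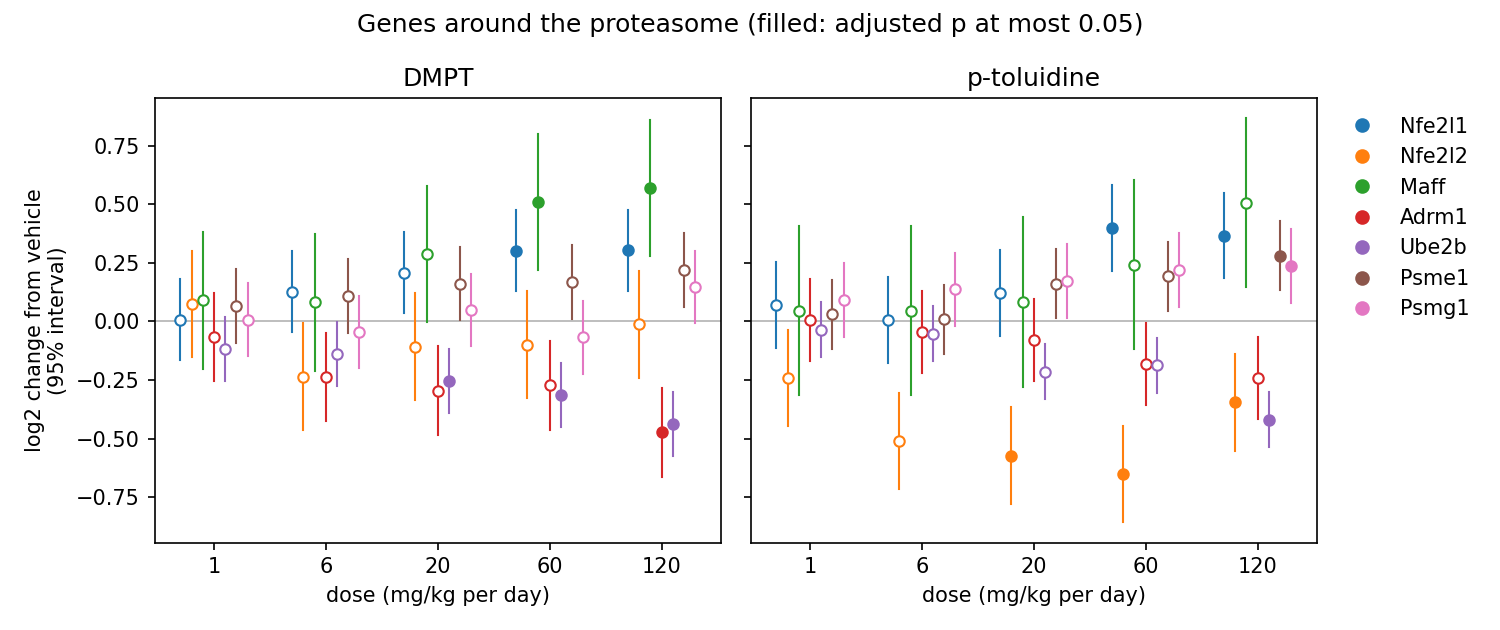
Log2 change from the vehicle of the same chemical, with its 95% confidence interval, for 7 partner genes of the proteasome by dose in mg/kg per day. Filled points passed an adjusted p of 0.05 in limma, and Nfe2l1 lies above 0 and Ube2b below 0 among them at 120 mg/kg of both chemicals.

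Of the 4 listed genes for activators and the inhibitor on the array, 0 were called at 120 mg/kg DMPT and Psme1 rose with p-toluidine. Psme1, a subunit of the activator that opens the core without ubiquitin, gave 9.25, 9.17, 9.03, 9.21 and 9.00 in p-toluidine vehicle and 9.41, 9.31, 9.41, 9.41 and 9.52 at 120 mg/kg, above vehicle on every array. The change was 0.28 (SE 0.0727, limma adjusted p = 0.00892). With DMPT it gave 9.65, 9.82, 9.66, 9.73 and 9.80 in vehicle and 9.91, 9.96, 9.97, 9.98 and 9.93 at 120 mg/kg, also without overlap, and its change of 0.22 missed the threshold (adjusted p = 0.0705). Of 8 assembly chaperones, 0 were called at 120 mg/kg DMPT and Psmg1, which pairs alpha subunits, rose by 0.24 with p-toluidine (adjusted p = 0.0451), a call lost in 8 of the 10 fits that left out 1 array. Of 11 antigen processing genes 0 were called at 120 mg/kg DMPT, while with p-toluidine Psme1 and the chaperone Pdia3 rose and B2m, the light chain of the presenting molecule, fell. Of 14 interferon response genes, Stat2 and Ifit3 rose with DMPT and Stat2 with p-toluidine, the latter near the 5.68% of all probe sets called higher. Ifit3 lost its call in 7 of the 10 fits that left out 1 array, and B2m lost it without 120 mg/kg replicate 1. Stat2, a signal carrier of the interferon receptor, changed by 0.32 (adjusted p = 0.00358) and 0.34 (adjusted p = 0.00321). Of 14 NRF2 targets, 9 rose and 1 fell at 120 mg/kg DMPT, and 11 rose and 0 fell with p-toluidine. Nqo1, the quinone reductase of that group, rose by 2.72 (SE 0.182, adjusted p = 5.73e-12) and 2.82 (SE 0.193, adjusted p = 5.93e-12).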

How the data were processed

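Liver RNA was measured on 60 one-colour arrays, 30 per chemical and 5 per group. The values were deposited by the authors on a log2 scale, taken as such from their range of 0.05 to 13.9. RMA is named in the submitters' processing notes, and no version was given in the sources. The chemicals' array sets differed in their medians and were each compared with their own vehicle. The design text names ORIOGEN, which was not used.

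Of 31099 probe sets, 57 controls were left out. Of the 31042 tested, 20826 carried 1 symbol, 436 several and 9780 none in the platform annotation, and none was named from several.

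Limma 3.58.1 in R 4.3.3 was fitted with 6 group means over the 30 arrays of a chemical, with dose rank as a slope for trends, and with 12 group means over all 60 arrays for differences in response. P-values were adjusted by Benjamini-Hochberg over all probe sets, and a call needed an adjusted p of at most 0.05. Class medians and array means carry no test, and nor do counts of changes below 0, since the subunits share the arrays of a group. No 2 arrays were identical. The 5 arrays per group limit the precision. On simulated data with 31042 probe sets, 2% of falls of 0.2, 24% of falls of 0.3 and 82% of falls of 0.5 on the log2 scale were called at 120 mg/kg DMPT, and 4%, 22% and 80% with p-toluidine. The simulated falls were put into probe sets drawn at random, dim ones included, and all other probe sets were left unchanged. The shares are about such probe sets, and detection among the brighter subunits was not simulated.

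All members are accounted for. Values on each array are given for the immune subunits and their constitutive counterparts, for the 2 members of each class with the smallest adjusted p at 120 mg/kg of either chemical and for the largest called fall at 20 and 60 mg/kg. In pathway lists the called genes with the smallest adjusted p are named. The members and lists were chosen with earlier results of these data known.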

Additional observations from a re-analysis of the deposited data

Results flagged for a closer look

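In 116 groups of 5 arrays, over the 20 members with values on each array and the class means, 1 array was tested for standing apart from the other 4 by Dixon's criterion, and 5 did so. Chance gives such a result in about 1 in 20 groups. In p-toluidine vehicle, replicate 5 read 5.87 for the immune subunit Psmb8, against 7.06 to 7.44 on the other 4 arrays. The same array read 7.76 for the alpha ring subunit Psma5, against 8.06 to 8.14. In DMPT vehicle, replicate 1 read 7.65 for the assembly chaperone Psmd5, against 7.49 to 7.54. The mean deviation of the cap subunits was -0.18 on replicate 3 of 6 mg/kg DMPT, against -0.1 to -0.07 on the others. It was -0.2 on replicate 5 of 120 mg/kg DMPT, against -0.14 to -0.11. Both of these last arrays are among those of narrow spread.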

How the results depend on the processing

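Of 436 comparisons of a count or class median with an alternative setting, 424 kept the count within 1.5 times or the median within 1 SD of the class mean over vehicle arrays. A count of 0 that stayed 0 was scored as kept. That SD was 0.28 and 0.41 for the immune class with DMPT and p-toluidine, and 0.08 for the p-toluidine core and cap. Small medians could hardly fail this rule, so the 424 are no measure of stability. With the beta-actin difference as a covariate, 1 subunit fell at 6 mg/kg DMPT and the cap median at 120 mg/kg was -0.21. In that fit 3, 12 and 13 subunits fell at 20, 60 and 120 mg/kg DMPT and 17 over dose rank. With p-toluidine 1 fell at 60 mg/kg, 4 at 120 mg/kg and 6 over dose rank. With the mean of a gene's probe sets, 1 subunit fell at 20 mg/kg DMPT and 0 at 60 mg/kg p-toluidine. Without the narrow arrays, 1 fell at 60 mg/kg DMPT and the core and cap medians there were -0.131 and -0.0453. Quantile normalisation without them gave 4. Fitting only the arrays compared gave 3 at 60 and 6 at 120 mg/kg DMPT, and 0 and 2 with p-toluidine. The cause of these shifts was not tested. Both settings without the narrow arrays, and the leave-one-out fits of the trends, were chosen after seeing the data.

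Leaving out 1 array in turn gave 1 to 3 subunits that fell at 20 mg/kg DMPT, 4 to 10 at 60 mg/kg and 5 to 10 at 120 mg/kg. It gave 0 to 2 at 60 mg/kg and 4 to 7 at 120 mg/kg p-toluidine. Class medians moved too. At 1, 6, 20, 60 and 120 mg/kg DMPT the core median ran from -0.118 to -0.0408, -0.187 to -0.137, -0.188 to -0.137, -0.218 to -0.150 and -0.159 to -0.101, and the cap median from -0.0666 to -0.0259, -0.124 to -0.0747, -0.0761 to -0.0348, -0.144 to -0.0673 and -0.174 to -0.128. With p-toluidine the core median ran from -0.0103 to 0.0538, -0.0716 to 0.0004, -0.0542 to -0.0035, -0.113 to -0.043 and -0.100 to -0.0384, and the cap median from -0.0155 to 0.0361, -0.0401 to -0.0042, -0.0386 to 0.0073, -0.0985 to -0.0479 and -0.144 to -0.092. Vehicle replicate 5 gave the lowest core median at 1, 6, 20 and 60 mg/kg p-toluidine when left out.

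Single uncalled genes changed sign at 120 mg/kg. With DMPT, Psmb10 was -0.0032 with median centring and -0.138 with the actin covariate. With the mean of a gene's probe sets, Psmb5, whose other probe sets lie below the array medians, was 0.0681, Psmd9 0.033 and Psmd14 0.203. With p-toluidine, Psmb5 was 0.0024 with quantile normalisation and 0.104 with the mean of its probe sets, and Psmc3ip was -0.0613 with the actin covariate. With 1 array left out, DMPT values ran from -0.0553 to 0.0523 for Psmb10 and from -0.0772 to 0.0517 for Psmc3ip. With p-toluidine they ran from -0.214 to 0.0151 for Psmb9, from -0.126 to 0.0444 for Psmb10, from -0.0472 to 0.0167 for Psmb5 and from -0.0561 to 0.0025 for Psma7.

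Correlations of deviations between same-numbered dosed and vehicle arrays ran from -0.308 to 0.322, and no comparison had all 5 above 0.1. Differently numbered arrays were not set beside them, so whether same-numbered arrays are pairs was not decided. With the replicate number as a block, 2, 7 and 9 subunits fell at 20, 60 and 120 mg/kg DMPT and 12 over dose rank, and 1, 4 and 6 fell at 60 mg/kg, 120 mg/kg and over dose rank with p-toluidine.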

Other observations

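The immune subunits had no call with dose but varied between arrays of a group, and they varied together. Over the 30 DMPT arrays, deviations of Psmb8 from its group means followed those of Psmb9, its partner in the immune core, with a Pearson r of 0.92 and a Spearman rho of 0.887. Over the 30 p-toluidine arrays r was 0.838 and rho 0.852. The permutation p, with arrays permuted within groups 100000 times, was 1e-05, the smallest they can give, and 4.5e-05 after Benjamini-Hochberg adjustment over the 18 relations computed. Without the 2 arrays farthest from the median, r was 0.859 and 0.85. Tap1, which carries peptides for presentation, gave 0.884 and 0.578 (adjusted permutation p = 4.5e-05 and 0.0028). Irf1, an interferon-induced factor, gave 0.704 and 0.503 (adjusted permutation p = 0.0011 and 0.012). The constitutive subunit Psmb5 gave 0.04 and 0.095 (adjusted permutation p = 0.87 and 0.74), the constitutive subunit Psmb7 gave 0.196 and 0.346 (0.48 and 0.2), and Stat2 gave 0.033 and 0.23 (0.87 and 0.32). The 18 relations were chosen after the values had been seen.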
